A study of Mus musculus with 6 samples.

Results

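Interferon-stimulated genes were followed in the tumour cells of xenografts, as the 43 rows of a human count table whose gene symbols stand on a list of classical antiviral genes, out of 58884 rows with a symbol. All 43 were found, each in 1 row, and 41 had enough counts to be tested among 18820 human genes. The list was drawn up by name and function, but with earlier results of these data known. RNA came from subcutaneous tumours that DU145 cells, an established human prostate cancer line, formed in male nude mice. The 3 control tumours (NC10, NC4 and NC9) carry the treatment label control. The 3 treated tumours (MBZ_254, MBZ_257 and MBZ_259) carry the label Zelnorm, the trade name of the serotonin receptor agonist tegaserod, which was given daily by mouth at a dose the labels do not state. Their titles say MBZ instead, a code the labels do not explain, so the comparison is between the groups as labelled.

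Type I interferons bind a receptor made of IFNAR1 and IFNAR2, whose kinases JAK1 and TYK2 phosphorylate STAT proteins. With IRF9 these form the factor ISGF3, which binds interferon-stimulated response elements and switches on genes whose products sense viral RNA, block translation, degrade RNA and trap virus at membranes. Tumour cells can keep part of this programme on without a virus. Nude mice lack a thymus and so nearly all T cells but keep natural killer cells, a source of interferon-gamma, and mouse interferon-gamma does not act on the human receptor. All tumours come from 1 cell line in such hosts, and the labels do not name the animals, so tests measure the spread between these 6 samples.

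The human table held 24602178 to 39278195 counts per library. The epithelial genes EPCAM, KRT8 and KRT18 were abundant, with at least 8922 counts in every library, while the luminal prostate genes KLK3 and KLK2 had 0 to 2 counts. Defining lymphocyte genes were near 0 (CD3E and NKG7 with 0 to 2 counts), apart from the B cell gene CD79A with 3 to 41, and the 11 leukocyte markers, mostly CD68 and CD74, together made up 61.4 to 74.0 CPM (counts scaled to a common library size). Matrix and muscle genes were not near 0 in the human table. The 6 fibroblast markers, nearly all of it collagen, summed to 306 to 1419 CPM, although DCN and LUM had 0 to 2 counts. The 4 skeletal muscle markers ran from 0.890 in MBZ_257 and 1.27 in MBZ_254 to 160 in MBZ_259. The labels do not say how reads were divided between species, and a part of mouse reads in the human values was not tested.

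Interferon-stimulated genes differed more from tumour to tumour than between treated and control tumours. Of the 41 tested members 35 had a lower mean in Zelnorm tumours, with a median log2 fold change of -0.17, where 50.9% of all tested genes lay lower and their median was -0.00. edgeR's quasi-likelihood test called 0 members and 0 of all tested genes (0% of 18820; smallest adjusted p among members = 1.00). At an unadjusted p under 0.05 it had 1 member, IRF1, and 247 genes in all. DESeq2 and limma-voom also called 0 members; over all genes DESeq2 called 1, TMEM238, which is no member, and limma-voom 0. For 39 of 41 members the log2 fold change was smaller than the pooled standard deviation (SD) within groups, the exceptions being IRF1 and IFI35. This was so for 83.1% of all tested genes. How far the list lay lower depended on single tumours, although its median log2 fold change stayed below 0 with any 1 left out. Without MBZ_257 the count of lower members was 23 and the median -0.02, without NC10 they were 26 and -0.05, and without NC9 29 and -0.07. Leaving out NC4 gave 36 and -0.34, leaving out MBZ_254 gave 39 and -0.37, and leaving out MBZ_259 gave 32 and -0.18. Without NC4, 11 of 41 members had an unadjusted p under 0.05 in edgeR, as had 592 of all 19599 genes then tested, and 0 were called. NC4 was the lowest control in 34 of the 41 members. The other fits with 1 library left out had 0 such members without NC10, NC9 or MBZ_259, 1 without MBZ_257 and 3 without MBZ_254. In bulk tumour RNA, fewer cells of a kind and less RNA per cell cannot be told apart.

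**Figure D1:**
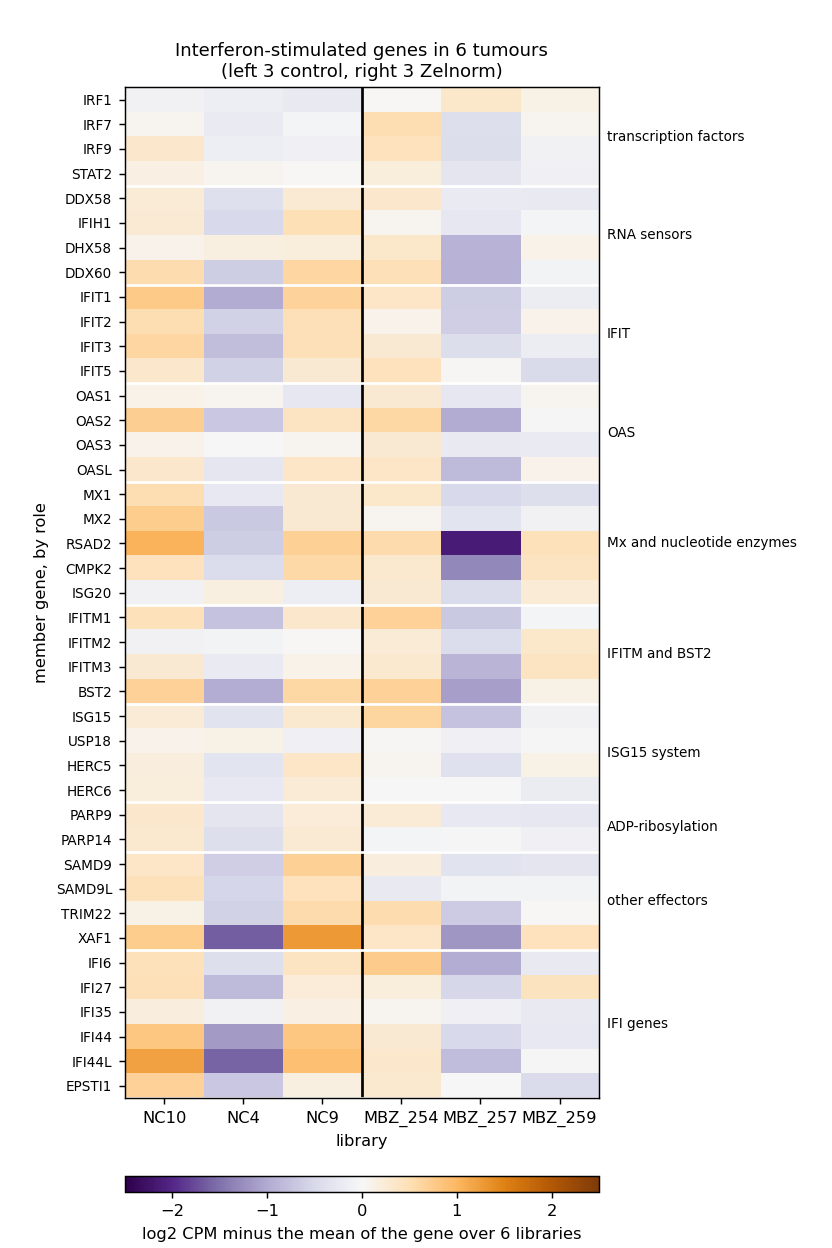
Each row is 1 of the 41 tested members, grouped by role, and each column 1 library; colour gives log2 CPM minus the mean of the gene over the 6 libraries. The columns NC4 and MBZ_257 are purple (low) for most rows, while NC10, NC9 and MBZ_254 are mostly orange (high), so that the black line between the groups does not divide high from low.

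The pattern that members shared was a low level in 1 tumour of each group. The lowest of the 6 values fell in MBZ_257 for 21 members and in NC4 for 17, together 38 of 41, where 42.2% of all tested genes had their lowest value in 1 of these 2 libraries. In 24 members NC4 and MBZ_257 held both of the lowest 2 ranks, against 8.36% of all tested genes. These 2 libraries were singled out after their values were seen, so the counts are a description. Highest values were in NC10 for 16 members, in MBZ_254 for 13 and in NC9 for 8. Of all 18820 tested genes, 2584 were highest in NC10, 3107 in MBZ_254 and 2503 in NC9. A score, the mean over the 41 members of log2 CPM centred on each gene, was 0.38 in NC10, -0.46 in NC4 and 0.32 in NC9. It was 0.29 in MBZ_254, -0.51 in MBZ_257 and -0.02 in MBZ_259. The group means were 0.08 ± 0.47 in control and -0.08 ± 0.41 in Zelnorm tumours (SD, n = 3 each), a difference of -0.16. This difference was 0.06 without MBZ_257, -0.01 without NC10, -0.04 without NC9, -0.43 without NC4 and -0.35 without MBZ_254. The 2 groups overlapped over nearly their whole range. Within the controls, NC4 lay below the mean of NC10 and NC9 in 36 members and in 48.4% of all tested genes. The median difference in log2 CPM was -0.84 for members and 0.02 over all tested genes. Within the Zelnorm tumours, MBZ_257 lay below the mean of MBZ_254 and MBZ_259 in 35 members and in 48.5% of all tested genes. Here the median difference was -0.61 for members and 0.01 over all tested genes. The median SD of log2 CPM over the 6 libraries was 0.47 for members and 0.21 for all tested genes.

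The mouse share and marker genes of other cell types were set beside the score. The mouse share of all counts was 22.3% in NC4 and 15.1% in MBZ_257, the second highest and the lowest of the 6 tumours. Fibroblast markers in the human table were highest in NC4 (1419 CPM) and lowest in MBZ_257 (306). Endothelial markers were likewise highest in NC4 (19.8 CPM) and lowest in MBZ_257 (5.98). Muscle markers were lowest in MBZ_254 and MBZ_257, whose interferon scores were 0.29 and -0.51. Summed leukocyte markers in the human table were 73.8 and 74.0 CPM in NC4 and MBZ_257 and 61.4 to 71.9 in the other tumours. The sum was thus highest, by a small margin, in the tumours with the lowest scores, but its single markers differed in direction. CD74, with 15.04 mouse counts per human count, was highest in MBZ_257 (36.6 CPM) and NC4 (31.5). PTPRC, with 17 to 48 counts per library, was lowest in MBZ_257 (0.556 CPM) and NC4 (0.657), against 0.797 to 1.20 elsewhere. CSF1R was lowest in MBZ_257 (5.74 CPM) but not low in NC4. PTPRC had 53.5, CSF1R 14.6 and CD68 1.35 mouse counts per human count, while CD79A had 0.0865. The human values of such markers need not follow the leukocyte content of a tumour. The part of the other cell types in the score was not tested.

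**Figure D2:**
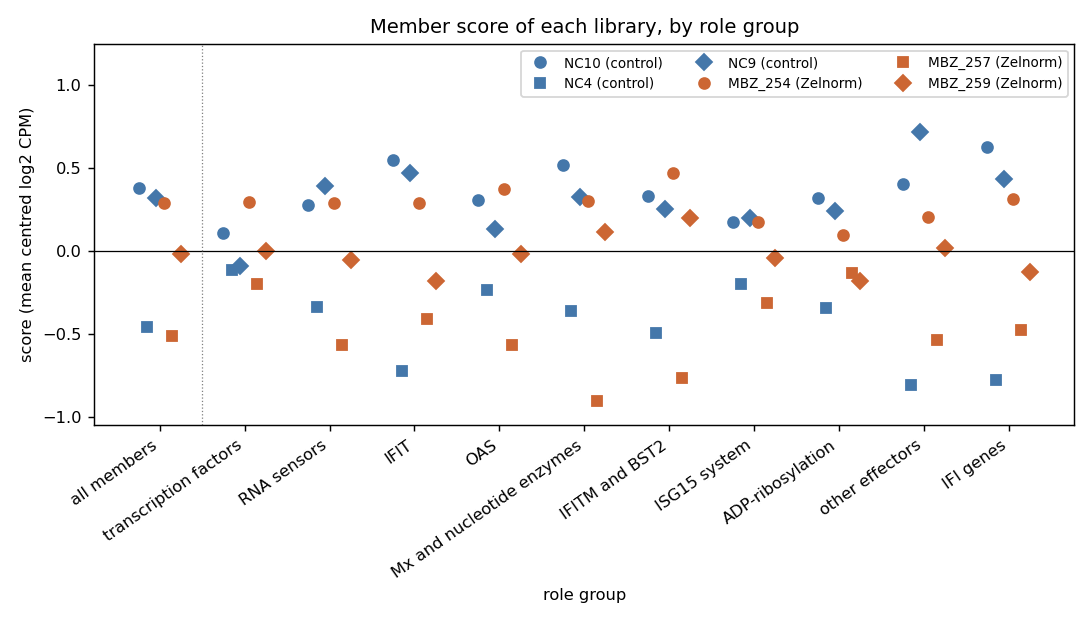
The vertical axis is the score (mean centred log2 CPM) of each library for all 41 tested members and for each role group; circles, squares and diamonds mark the libraries and colour marks the group. NC4 and MBZ_257 lie below 0 in every group, and NC10 and MBZ_254 above 0 in every group.

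Of the 4 transcription factors, IRF1 and IRF7 had a higher and STAT2 and IRF9 a lower mean in Zelnorm tumours, 0 called. IRF1, a factor that both interferon and NF-kB signals induce, stood at 26.0, 25.0 and 23.7 CPM in NC10, NC4 and NC9 and at 28.1, 35.2 and 30.2 CPM in MBZ_254, MBZ_257 and MBZ_259. All 3 Zelnorm tumours lay above all 3 controls, the single member whose groups did not overlap, against 2.52% of all tested genes in this direction. None was separated in the other direction (2.31% of all tested genes). Its log2 fold change of 0.32 (SE 0.13) did not pass edgeR's test (adjusted p = 1.00), and IRF1 was highest in MBZ_257, the tumour with the lowest score. STAT2, the ISGF3 subunit that is shared by type I and type III interferon signals, was at 148, 140 and 135 CPM in the controls and at 155, 109 and 124 CPM in the Zelnorm tumours. It varied little, by 1.43-fold between the highest and the lowest library. IRF9, the DNA-binding subunit of ISGF3, ran from 26.2 CPM in MBZ_257 to 47.9 in MBZ_254, and IRF7, which drives interferon-alpha genes, from 22.5 to 42.7 in the same libraries (IRF7 log2 0.17, SE 0.21). Thus IRF7 and IRF9 had their lowest and their highest value within the Zelnorm group.

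The 4 RNA sensors and their relatives all had a lower mean in Zelnorm tumours (log2 fold changes -0.09 to -0.34; 0 called). DDX58, which encodes RIG-I, the sensor of RNA ends, was at 33.1, 21.4 and 33.7 CPM in NC10, NC4 and NC9 and at 34.9, 24.3 and 23.8 CPM in MBZ_254, MBZ_257 and MBZ_259. IFIH1, which encodes MDA5, the sensor of long double-stranded RNA, was at 18.4, 11.0 and 21.7 CPM in the controls and at 15.9, 12.8 and 14.97 CPM in the Zelnorm tumours (log2 -0.23, SE 0.23). The control NC4 was the lowest library for both. DDX60, a helicase linked to RIG-I, varied by 2.92-fold, from 5.19 CPM in MBZ_257 to 15.1 in NC9. DHX58 (LGP2, a regulator of both sensors) departed from the pattern in NC4, at 3.90 CPM there, 3.68 in NC10 and 3.99 in NC9, but was low in MBZ_257 (1.85).

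The IFIT genes, neighbours in one gene cluster whose proteins bind viral RNA and block its translation, were low in NC4, with a median difference of -1.19 in log2 CPM from the other controls. IFIT1 was at 53.7, 16.0 and 49.4 CPM in NC10, NC4 and NC9 and at 40.3, 20.3 and 28.2 CPM in MBZ_254, MBZ_257 and MBZ_259. The Zelnorm tumours all lay between NC4 and NC9, and the fold change of IFIT1 (log2 -0.43, SE 0.39) went from -0.80 without NC4 to -0.15 without NC10. IFIT2 was at 22.5, 10.7 and 22.2 CPM in the controls and at 16.8, 10.4 and 16.9 CPM in the Zelnorm tumours (log2 -0.33, SE 0.29). IFIT3, a partner of IFIT1 in RNA binding, followed with 10.9 CPM in NC4 and 14.0 in MBZ_257 against 28.7 in NC10. IFIT5 differed in that its second lowest value was in MBZ_259 (9.16 CPM) and not in MBZ_257.

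The OAS family, enzymes that make 2′-5′ oligoadenylate and so activate RNase L, divided by how far its members varied. OAS3, its long member, was at 267, 247 and 260 CPM in NC10, NC4 and NC9 and at 304, 214 and 217 CPM in MBZ_254, MBZ_257 and MBZ_259, a 1.42-fold range. OAS1 had a range of 1.46-fold (79.9 to 116 CPM) and its lowest value in NC9. OAS2, in contrast, ranged 3.24-fold, from 9.73 CPM in MBZ_257 and 11.9 in NC4 to 31.5 in NC10. OASL, a relative without the enzyme activity, was at 12.9, 8.50 and 13.3 CPM in the controls and at 13.3, 5.87 and 11.0 CPM in the Zelnorm tumours (log2 -0.21, SE 0.29). Of the 4, OAS1 alone had a log2 fold change above 0 (0.07, SE 0.16), and that sign turned without NC9 or without MBZ_254.

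MX1, a GTPase that traps viral nucleocapsids, was at 134, 78.5 and 114 CPM in NC10, NC4 and NC9 and at 118, 65.9 and 70.8 CPM in MBZ_254, MBZ_257 and MBZ_259. Its log2 fold change was -0.36 (SE 0.24) and kept its sign with each library left out (-0.67 to -0.19). MX2, its homologue active against retroviruses, ranged from 9.47 CPM in NC4 to 25.1 in NC10. RSAD2 (viperin, which makes a chain-terminating nucleotide) had the widest range of the members, 9.11-fold, from 0.371 CPM in MBZ_257 to 3.38 in NC10. Its adjacent gene CMPK2, a nucleotide kinase, was also lowest in MBZ_257, at 1.08 CPM against 3.30 and 3.54 in the other Zelnorm tumours. RSAD2 and CMPK2 rest on few counts, 12 and 35 in MBZ_257. ISG20, an exonuclease, had 17.5 CPM in NC4, above both other controls (14.7 and 14.1), and 11.4 in MBZ_257.

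**Figure D3:**
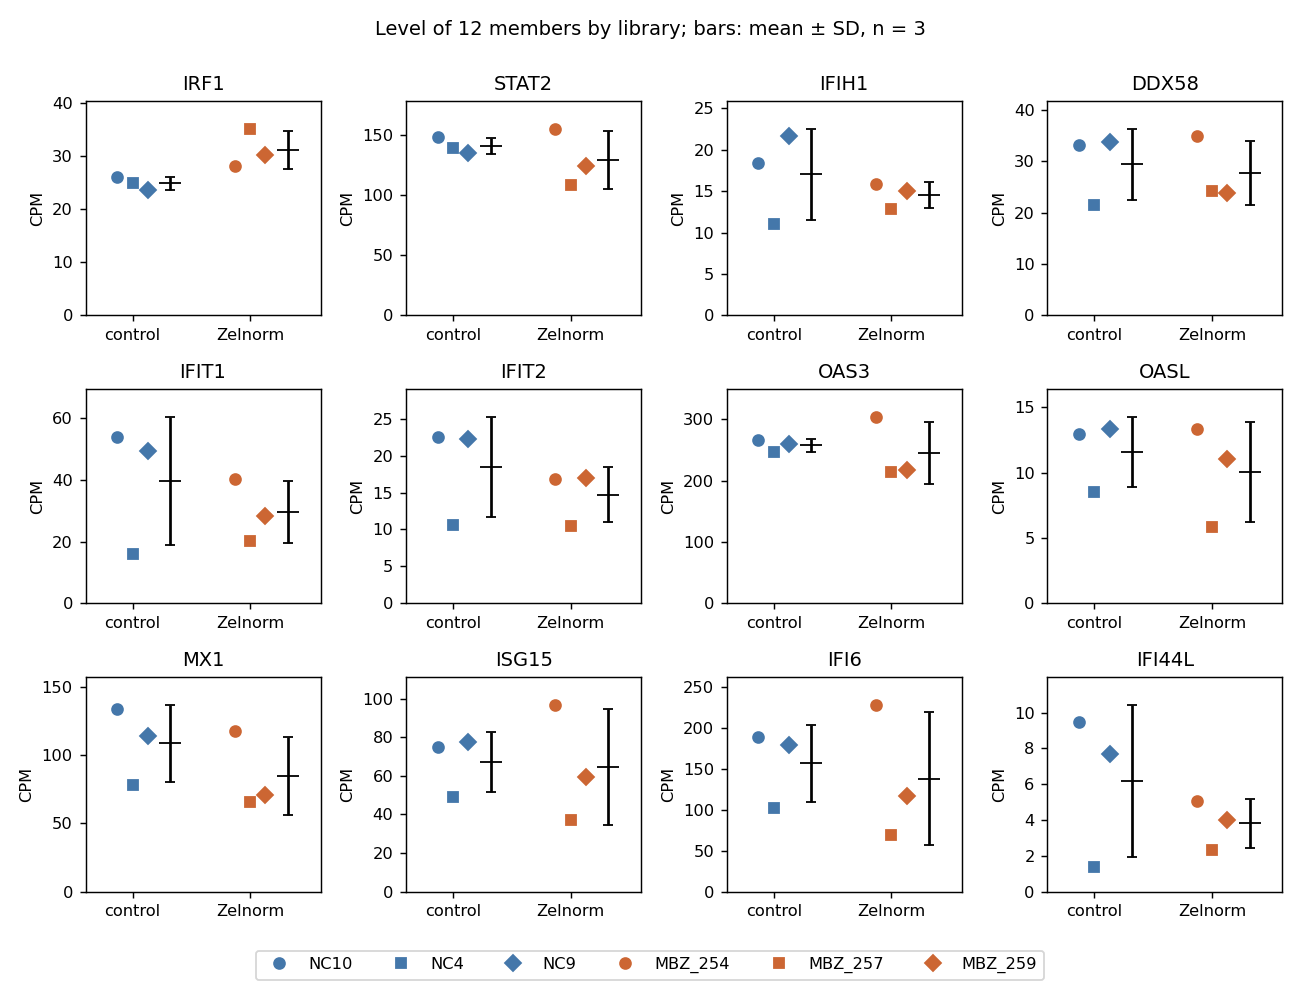
Each panel gives the CPM of 1 member in the 6 libraries, with the group mean ± SD (n = 3) as a bar beside the points; every axis starts at 0. The squares (NC4 and MBZ_257) are the lowest points of their groups in most panels, and IRF1 is the panel in which the Zelnorm points lie above all control points.

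Among membrane restriction factors, IFITM3, which blocks the fusion of virus with endosomes, was at 37.2, 26.2 and 32.7 CPM in NC10, NC4 and NC9 and at 37.7, 16.4 and 40.0 CPM in MBZ_254, MBZ_257 and MBZ_259. IFITM2 was at 19.8, 20.1 and 21.0 CPM in the controls and at 24.8, 15.5 and 26.5 CPM in the Zelnorm tumours (log2 0.13, SE 0.19). IFITM2 and IFITM3 are near-identical copies, so the split of reads between them is uncertain, and their mouse namesakes had more counts (1.59 and 1.05 mouse counts per human count). IFITM1, the copy found at the cell surface, ranged 2.69-fold with its lowest values in NC4 (17.1 CPM) and MBZ_257 (18.0), and had 0.0297 mouse counts per human count. BST2 (tetherin, which holds budding virus at the membrane) had 2.78 CPM in NC4 and 2.53 in MBZ_257 against 5.95 to 8.73 elsewhere.

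ISG15, a ubiquitin-like modifier, was at 74.7, 49.2 and 77.7 CPM in NC10, NC4 and NC9 and at 96.7, 37.1 and 59.3 CPM in MBZ_254, MBZ_257 and MBZ_259. The highest and the lowest value were both in Zelnorm tumours, and the log2 fold change was -0.06 (SE 0.30). USP18, the protease that removes ISG15 and restrains the receptor, varied least of all members, by 1.18-fold (48.4 to 57.1 CPM), and was highest in NC4, where ISG15 was low. HERC6, a relative of the ISG15 ligase, was at 30.7, 22.7 and 31.6 CPM in the controls and at 26.6, 26.5 and 23.6 CPM in the Zelnorm tumours (log2 -0.15, SE 0.15). HERC5, the main human ISG15 ligase, ranged from 5.93 CPM in MBZ_257 to 9.79 in NC9.

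PARP14, an ADP-ribosyltransferase, was at 136, 83.2 and 132 CPM in NC10, NC4 and NC9 and at 105, 108 and 102 CPM in MBZ_254, MBZ_257 and MBZ_259. The Zelnorm tumours lay close together, inside the range of the controls (SD 3.16 against 29.3 CPM). PARP9, its partner, had 39.0 CPM in NC4 and 40.3 and 40.0 in MBZ_257 and MBZ_259, against 55.4 to 59.8 in the other 3 libraries. SAMD9, which blocks translation during poxvirus infection, was at 9.14, 4.68 and 11.6 CPM in the controls and at 8.18, 5.68 and 5.84 CPM in the Zelnorm tumours (log2 -0.38, SE 0.30). SAMD9L and TRIM22, a ubiquitin ligase, had on average the fewest counts of the tested members, with 28 to 84 and 21 to 71 per library. XAF1, which antagonises the apoptosis inhibitor XIAP, ranged 7.54-fold, with 18 counts in NC4 and 31 in MBZ_257 against 68 to 209 in the others.

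The IFI genes, named for their induction by interferon, and EPSTI1, which was grouped with them, differed widely in how far they varied. IFI44L, a feedback regulator of the interferon response, was at 9.45, 1.35 and 7.71 CPM in NC10, NC4 and NC9 and at 5.08, 2.35 and 3.99 CPM in MBZ_254, MBZ_257 and MBZ_259. Its log2 fold change of -0.71 (SE 0.55), the lowest of the members, ran from -1.18 without NC4 to -0.28 without NC10. IFI6, which encodes a membrane protein with antiviral and anti-apoptotic activity, was at 189, 103 and 179 CPM in the controls and at 228, 69.6 and 117 CPM in the Zelnorm tumours (log2 -0.18, SE 0.37). It thus spanned 3.28-fold within the Zelnorm group. IFI44 resembled IFI44L, with 2.40 CPM in NC4, 9.26 in NC10 and 9.24 in NC9. IFI27 had 8.73 CPM in NC4 and 10.8 in MBZ_257 against 17.8 to 21.6 elsewhere, and its log2 fold change of 0.02 (SE 0.32) turned to -0.0051 when libraries were scaled by their totals alone. EPSTI1 ranged from 2.01 CPM in NC4 to 5.20 in NC10. IFI35, which binds the protein NMI, ranged only 1.31-fold (11.7 to 15.3 CPM; log2 -0.16, SE 0.15).

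The chemokines CXCL10 and CXCL11, ligands of CXCR3 on T and natural killer cells, were too low to test. CXCL10 had 3, 1 and 4 counts in NC10, NC4 and NC9 and 1, 6 and 7 in MBZ_254, MBZ_257 and MBZ_259. CXCL11 had 2, 0 and 3 counts in the controls and 4, 2 and 0 in the Zelnorm tumours. Their mouse namesakes had 345 and 81 counts over the 6 libraries. No difference between groups was detectable at this depth, where 3 counts correspond to 0.0767 to 0.122 CPM.

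**Figure D4:**
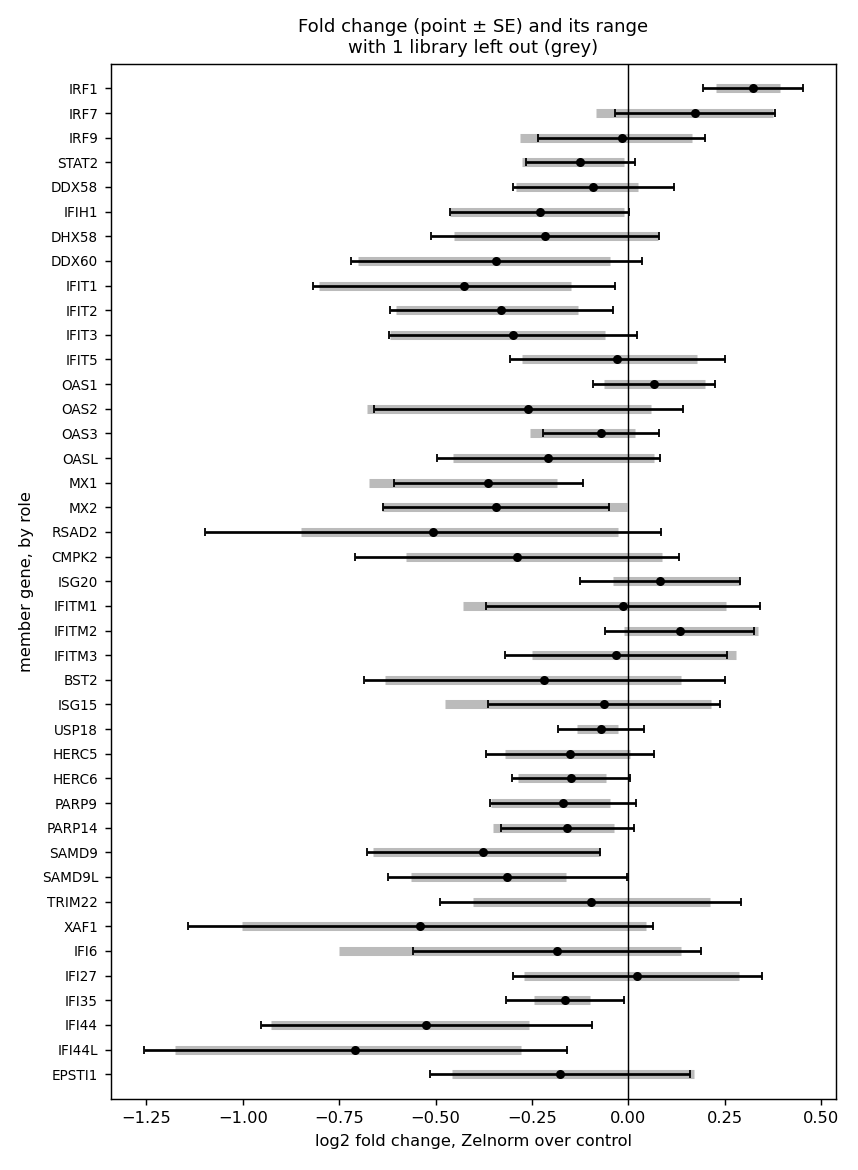
Points are log2 fold changes of the 41 tested members, Zelnorm over control, with SE bars; grey bars span the values with each of the 6 libraries left out in turn. Of the points 35 lie below 0, and the grey bars of 22 members cross 0.

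Host cells can express genes of the same name, and 36 of the 43 members had a mouse gene with their symbol. Genes were matched by symbol alone, so a namesake need not be the exact counterpart of the human gene. The score of these 36 mouse genes was 0.12, -0.25 and 0.22 in NC10, NC4 and NC9 and 0.35, -0.27 and -0.17 in MBZ_254, MBZ_257 and MBZ_259, so that NC4 and MBZ_257 were the lowest there as well. Of the mouse genes 28 of 36 (77.8%) had a lower mean in Zelnorm tumours, against 46.1% of 14459 tested mouse genes, and edgeR called 0 of them and 0% of all. At an unadjusted p under 0.05 there were 0 of the 36 and 253 of all. More mouse than human counts were found for the untested CXCL10 and CXCL11 and for 9 tested members, namely RSAD2, XAF1, IFI44, BST2, EPSTI1, IFITM3, DHX58, SAMD9L and IFITM2. For the other 32 tested members the human score was 0.35, -0.41 and 0.28 in the controls and 0.29, -0.44 and -0.06 in the Zelnorm tumours. At the other end, OAS3 had 0.00832 mouse counts per human count, MX1 0.0280 and ISG15 0.0486. IFI6, IFIT5, OAS1, OASL, HERC5, SAMD9 and TRIM22 had no single mouse row with their symbol.

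The ligands that could drive these genes were nearly silent in the human table. Of 21 interferon genes 3 had enough counts to test. IFNE, the epithelial type I interferon, was at 2.58, 2.05 and 3.01 CPM in NC10, NC4 and NC9 and at 2.68, 3.34 and 3.29 CPM in MBZ_254, MBZ_257 and MBZ_259 (log2 0.28, SE 0.23). It was highest in MBZ_257, where the member score was lowest. IFNA1 and IFNA13, copies that encode the same protein and whose reads are therefore hard to assign, had 3 to 29 and 4 to 18 counts. IFNB1 had 3 counts in NC10 and 0 elsewhere, and IFNG 0 in every library. The type III genes IFNL1, IFNL2 and IFNL3 had at most 7 counts in a library.

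The receptor and signalling genes showed smaller ranges over the libraries, with a median ratio of highest to lowest of 1.39 for receptors and 1.26 for kinases and factors. The 6 receptor chains were all expressed, 3 with a higher and 3 with a lower mean in Zelnorm tumours, 0 called. IFNAR1 was at 133 to 164 CPM and IFNAR2 at 24.5 to 36.9 CPM over the 6 libraries (IFNAR2 log2 -0.12, SE 0.17). The interferon-lambda chains IL10RB and IFNLR1 had log2 fold changes of 0.06 (SE 0.19) and 0.04 (SE 0.15). Of 9 kinases and factors 7 lay lower and 0 were called. On the log2 scale JAK1 differed by -0.13 (SE 0.16) and STAT3, a factor of many cytokines, by -0.08 (SE 0.12).

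Of 15 sensors and adaptors 11 were tested, 6 higher and 5 lower, 0 called. CGAS, the sensor of cytosolic DNA, was at 13.7, 12.1 and 14.0 CPM in NC10, NC4 and NC9 and at 14.6, 14.7 and 33.9 CPM in MBZ_254, MBZ_257 and MBZ_259 (log2 0.67, SE 0.30). The other two Zelnorm tumours lay just above the highest control, and MBZ_259, whose member score was near 0, stood far above all. IFI16, a DNA sensor that interferon induces, resembled the members, with 4.33 CPM in NC4 and 3.21 in MBZ_257 against 6.26 to 10.3 elsewhere (log2 -0.47, SE 0.36). IKBKE, a kinase upstream of IRF3, had a log2 fold change of -0.19 (SE 0.21). Of 9 feedback inhibitors 4 were higher and 5 lower, 0 called, with TRIM25 at -0.13 (SE 0.14), PIAS1 at 0.09 (SE 0.12) and SOCS1 at -0.26 (SE 0.46) on the log2 scale. MBZ_257 had the lowest score also for kinases and factors (-0.22), sensors and adaptors (-0.13) and feedback inhibitors (-0.18). NC4 stood at 0.08, -0.03 and 0.06 in these lists. Receptors scored lowest in MBZ_259 (-0.09).

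A further list of 29 interferon-induced effectors outside the members had 24 lower and 5 higher means in Zelnorm tumours, 0 called, with a median log2 fold change of -0.10. UBA7, the enzyme that activates ISG15, was at 5.46, 3.98 and 5.57 CPM in the controls and at 4.23, 3.46 and 3.27 CPM in the Zelnorm tumours (log2 -0.46, SE 0.21), with 2.20 mouse counts per human count. PARP12, another ADP-ribosyltransferase, differed by -0.20 (SE 0.13) on the log2 scale and GBP3, a GTPase, by -0.39 (SE 0.31). In 5 of the 29, NC4 and MBZ_257 held both of the lowest 2 ranks, a pattern found in 24 of the 41 members and 8.36% of all tested genes. Scores of this list ran from -0.15 in MBZ_257 to 0.14 in NC10, a narrower span than that of the members.

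Genes induced mainly by interferon-gamma did not share the pattern of the members in MBZ_257. Of 13 genes 11 were tested, 5 higher and 6 lower, 0 called, and the list's score was highest in MBZ_257 (0.13) and lowest in NC4 (-0.18). The split was near even, as 5 of the 11 lay lower in MBZ_257 than the mean of the other Zelnorm tumours. The median difference was 0.03 in log2 CPM. HLA-DRA, an MHC class II chain, was at 0.797, 0.425 and 0.904 CPM in NC10, NC4 and NC9 and at 0.854, 1.64 and 1.16 CPM in MBZ_254, MBZ_257 and MBZ_259 (log2 0.77, SE 0.39). CIITA, the activator of class II genes, was at 6.18 CPM in MBZ_257 and at 3.59 to 4.15 elsewhere (log2 0.31, SE 0.23), with 2.46 mouse counts per human count. Both were highest in MBZ_257, HLA-DRA with only 11 to 53 counts per library. CD74, with 15.04 mouse counts per human count, was also highest there. But HLA-DRB1, another class II chain of the list, was lowest in MBZ_257 (12.7 CPM, against 13.7 to 16.8 elsewhere). IDO1, a tryptophan-degrading enzyme with 5 to 32 counts per library, had a log2 fold change of -0.66 (SE 0.53). Whether the lists differ from each other in any tumour was not tested.

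**Figure D5:**
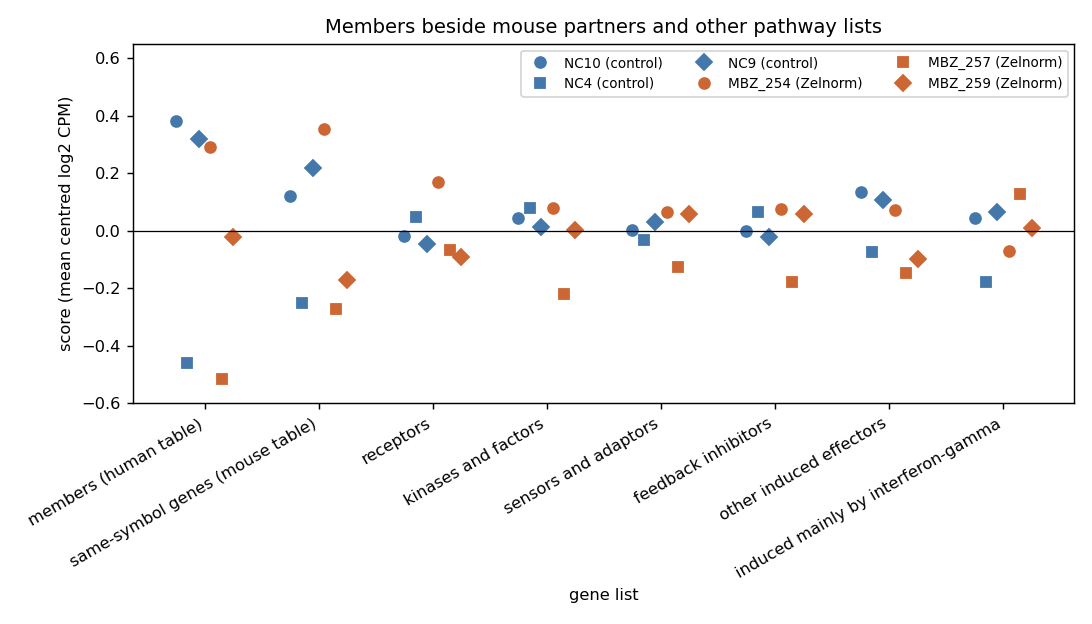
The vertical axis is the score (mean centred log2 CPM) of each library for the members, for their same-symbol genes in the mouse table (scaled within that table) and for 6 other lists of the human table. NC4 and MBZ_257 are the lowest points of the first 2 columns, while MBZ_257 is the highest point of the last.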

How the data were processed

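The authors deposited estimated counts (38.0% of human values above 0 were not whole) in a human and a mouse table of the same 6 libraries. HISAT2, StringTie, DESeq2, edgeR, GRCh38 and GRCm38 are named per the submitters' processing notes, without roles or versions. Counts were rounded. Rows without a symbol (574 of 59458 human rows, 0.407% to 0.518% of a library's counts) were left out. Columns name a group but no replicate number.

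Zelnorm was compared with control over the whole human table with edgeR 4.0.16 in R 4.3.3 (filterByExpr, TMM, two-sided quasi-likelihood test), adjusted by Benjamini-Hochberg and called under 0.05. The standard error (SE) comes from the F statistic. CPM uses TMM-scaled totals; marker sums and floors use plain totals of named rows. Scores use log2 CPM with a prior count of 2. The code was checked on simulated data. Members and lists were chosen with earlier results of these data known. In each role group, the tested member with the smallest p and that with the most counts are given in every library; of other lists, up to 3 genes with the smallest p. Some genes are not reported here. Other genes were named after their values were seen. Alternatives used DESeq2 1.42.0 and limma 3.58.1 (voom), other scaling, no count filter and left-out libraries. Human sequences were not used here.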

Additional observations from a re-analysis of the deposited data

How the results depend on the processing

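The number of called human genes was 0 with RLE scaling, library totals, limma-voom, each library left out, or genes with more mouse counts removed; it was 1 with DESeq2 and 61 without the count filter, 0 of them members, and the cause was not tested. Adjusted p-values of members ran from 0.998 to 1.00 over these alternatives. Between 23 and 39 members lay lower when 1 library was left out, and 35 or 36 under other scaling, tools or filters (27 of 32 without genes with more mouse counts). The members' median was -0.15 to -0.19 in these. IFI27 turned to -0.0051 with library totals only. No paired analysis was possible because the columns carry no replicate number of the labels, and a replicate block was not run. The labels do not state that control and Zelnorm tumours were paired. With 1 library left out, 22 members changed sign. Their log2 fold changes ran from -0.083 to 0.37 for IRF7, from -0.28 to 0.16 for IRF9, from -0.29 to 0.025 for DDX58, from -0.45 to 0.076 for DHX58, from -0.27 to 0.18 for IFIT5, from -0.062 to 0.20 for OAS1, from -0.68 to 0.060 for OAS2, from -0.25 to 0.018 for OAS3, from -0.45 to 0.066 for OASL, from -0.58 to 0.088 for CMPK2, from -0.039 to 0.29 for ISG20, from -0.43 to 0.25 for IFITM1, from -0.011 to 0.34 for IFITM2, from -0.25 to 0.28 for IFITM3, from -0.63 to 0.14 for BST2, from -0.48 to 0.21 for ISG15, from -0.32 to 0.0056 for HERC5, from -0.40 to 0.21 for TRIM22, from -1.003 to 0.046 for XAF1, from -0.75 to 0.14 for IFI6, from -0.27 to 0.29 for IFI27, from -0.46 to 0.17 for EPSTI1. The scores of the 6 libraries moved by less than 1 SD with a median, a prior count of 0.5, members with a mean of at least 100 counts or, chosen after seeing the data, without members with more mouse counts. A group size of 3, and under 100 counts per library for RSAD2, XAF1, CMPK2, SAMD9L and TRIM22 on average, limit what can be detected.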
